A study of Mus musculus with 8 samples.

Results

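Genes of the BCL2 family and of the apoptosis inhibitors were followed in mouse peritoneal macrophages through an LPS time course. The 10 genes were taken by symbol from the platform annotation, as every probe set that carried the gene's symbol and no other. They comprised 10 of the 18193 genes named in this way and 37 of the 45101 probe sets on the array. They were Bcl2l11 (BIM), Pmaip1 (NOXA), Bbc3 (PUMA), Mcl1, Bcl2, Bcl2l1 (BCL-X), Cflar (cFLIP), Birc2 (cIAP1), Birc3 (cIAP2) and Xiap.

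The macrophages had been drawn into the peritoneal cavity with thioglycollate, an irritant. They came from mice labelled Zc3h12a KO (Zc3h12a-/- in the study's design) and from wild-type mice, and were left unstimulated (0 h) or given 100 ng/ml lipopolysaccharide (LPS), the bacterial product sensed by TLR4, for 1, 2 or 4 h. The gene's product, Regnase-1, is an RNase known to break down mRNAs of inflammatory genes. Each of the 8 conditions was measured on 1 Affymetrix array. The allele's construction, the background strain, age and number of mice, and any pooling of animals, were not given in the sources used here.

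Mitochondrial apoptosis is set by binding between BCL2 proteins. Guardians such as BCL2, BCL-X and MCL1 hold the pore formers BAX and BAK in check, while BH3-only proteins such as BIM, NOXA and PUMA occupy the guardians and free the pore formers. cFLIP blocks caspase-8 at death receptors, XIAP inhibits caspases directly, and cIAP1 and cIAP2 are ubiquitin ligases of TNF receptor complexes. In macrophages LPS starts both NF-kB survival signals and death signals, and the balance of these proteins is known to bear on survival after TLR4 stimulation.

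Values are log2 intensities after RMA, and values of different probe sets are not on 1 scale. Background was taken on each array as the highest of 27 bacterial control probe sets and lay between 2.96 and 3.26. For Zc3h12a itself, 1 probe set stayed near background, and the other had 6.73, 7.70, 8.75 and 8.50 over the time course in labelled-KO cells and 6.12, 8.02, 8.87 and 8.57 in wild-type cells, close at every LPS time and higher in labelled-KO cells at 0 h. Where its probes lie relative to the deleted part was not established, so the genotype labels could not be checked with it, and the cells are therefore called labelled-KO. Summed macrophage markers lay at 15.11 to 15.29 in labelled-KO cells and 15.10 to 15.24 in wild-type cells, and all 9 measured markers were above background on some array. By genotype, Itgam (0.90, adjusted p = 0.0453) and Adgre1 (0.71, adjusted p = 0.00873) were higher and Fcgr1 (-0.87, adjusted p = 0.00606) lower in labelled-KO cells. Among 12 resident peritoneal macrophage markers, 10 were higher in labelled-KO cells, with a summed level of 14.73 to 14.97 against 12.92 to 13.97 in wild-type cells. Of 8 mesothelial and stromal markers tested, 7 were lower in labelled-KO cells, at 8.87 to 9.48 summed against 10.5 to 10.9 in wild-type cells, while Msln and Krt19 were at background on every array. The summed dendritic markers lay at 9.55 to 9.74 in labelled-KO cells against 10.60 to 10.96 in wild-type cells (1 of 2 tested lower, Xcr1 and Ccr7 at background), and mast cell markers at 5.77 to 5.96 against 6.09 to 6.77 (2 of 5 lower, Mcpt4 and Fcer1a at background). Among the other lists, 1 of 4 T and NK cell, 1 of 4 neutrophil, 1 of 6 B cell and 0 of 1 eosinophil markers tested were higher in labelled-KO cells, and 1 B cell marker was lower. Some of these differences were large, 3.68 for Ighm (B cells), 3.12 for S100a9 (neutrophils) and 0.89 for Cd3e (T cells). The lower B cell marker was Cd22 (-1.47). The 3′ minus 5′ difference of Actb, a sign of RNA integrity or labelling, was 3.11, 2.61, 2.52 and 2.30 over the time course in labelled-KO cells and 2.64, 2.35, 2.43 and 2.16 in wild-type cells, and its part in the results was not tested.

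LPS changed these genes in different directions and at different times. By 4 h Cflar had reached 8.55 times its unstimulated level, Birc3 4.34 times and Birc2 2.54 times, while Bcl2 was 5.96-fold lower and Bcl2l11 3.92-fold lower than at 0 h. Bcl2l11 and Pmaip1 had peaked at 1 h. LPS times were compared with limma over both genotypes (n = 2 arrays at each time, genotype as a block), each gene was represented by its brightest probe set, and p-values were adjusted over 12540 genes with a threshold of 0.05. Of the 10 genes, 9 passed the filter on low values and Bbc3 did not, and 33 of their 37 probe sets passed it. At 1 h, 4 of the 9 rose and 0 fell, where 3.85% of all tested genes rose and 6.62% fell. At 2 h, 4 rose and 2 fell, against a background of 12% and 29.8%. At 4 h, 3 rose and 3 fell, against 14.4% and 29.4%. From 1 to 2 h, 0 rose and 4 fell (7.71% and 14.6% of all genes), and from 2 to 4 h, 1 rose and 2 fell (11.3% and 9.72%). Relative to 0 h, the median of the 9 log2 differences was 0.22 at 1 h, 0.06 at 2 h and -0.50 at 4 h, beside -0.09, -0.16 and -0.12 over all tested genes. In these bulk samples, fewer cells of a type and less RNA per cell cannot be told apart. Markers of other cells also moved with LPS. The summed neutrophil markers lay at 10.62, 10.91, 11.55 and 11.97 over the time course in labelled-KO cells and at 10.45, 10.57, 11.30 and 11.82 in wild-type cells, and 2 of 4 tested were higher at 4 h, S100a8 by 1.39 and S100a9 by 1.33, while Elane, Ltf and Cxcr2 were at background on every array. At 4 h, 2 of 8 mesothelial and stromal, 1 of 2 dendritic and 0 of 4 T and NK cell markers were higher with 0 lower, and 1 of 6 B cell, 1 of 5 mast cell and 1 of 1 eosinophil markers were lower with 0 higher. Of the macrophage markers 3 of 9 were higher and 1 lower, and of the resident peritoneal macrophage markers 3 of 12 were higher and 2 lower. Their part in the LPS differences was not tested.

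**Figure D1:**
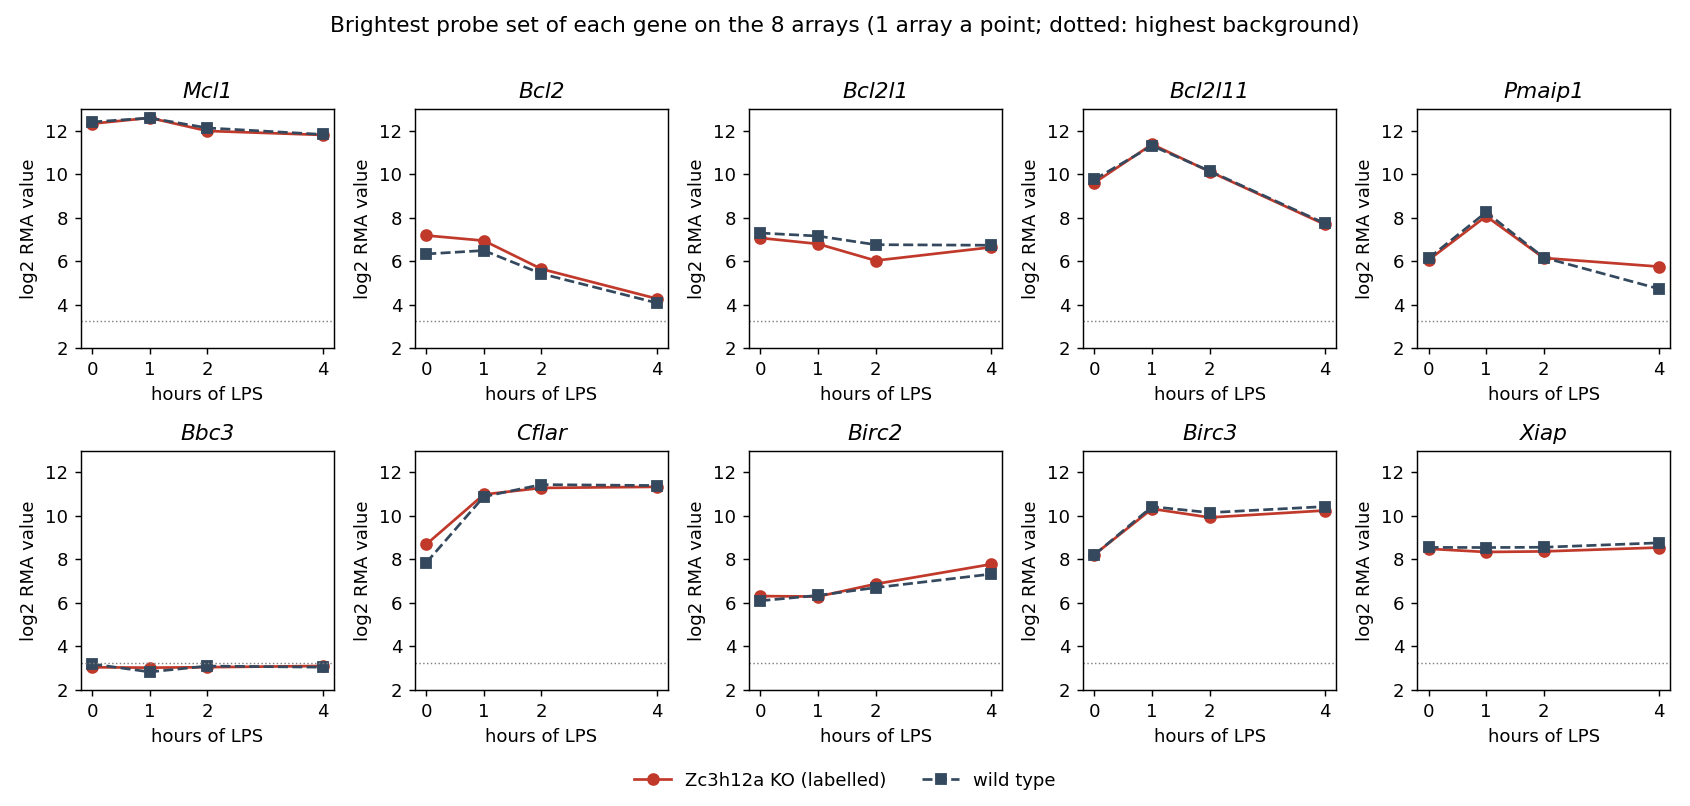
Log2 intensity (vertical axes) of each gene's brightest probe set at 0, 1, 2 and 4 h of LPS (horizontal axes), with 1 array a point, for labelled-KO and wild-type cells. Cflar and Birc3 stood above their 0 h values at 1, 2 and 4 h in both genotypes, Bcl2l11 and Pmaip1 were highest at 1 h, and Bcl2 was lowest at 4 h.

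The BH3-only gene Bcl2l11, whose product BIM binds all the main guardians, had the widest range over the 8 arrays (3.69) of the 9 tested genes when each was taken by its brightest probe set. Its brightest probe set read 9.62, 11.38, 10.13 and 7.70 in labelled-KO cells and 9.77, 11.31, 10.15 and 7.75 in wild-type cells at 0, 1, 2 and 4 h. In both genotypes the 1 h array was the highest and the 4 h array the lowest, and no array of one time overlapped those of another. Relative to 0 h, expression rose by 1.65 (3.15-fold, SE 0.11, adjusted p = 0.000420) at 1 h, and at 4 h it had fallen below 0 h, with a difference of -1.97 (3.92-fold, SE 0.11, adjusted p = 4.72e-05). The decrease ran through both later steps, which are of unequal length. The difference was -1.21 (SE 0.11, adjusted p = 0.00127) between 2 and 1 h and -2.42 (SE 0.11, adjusted p = 0.000180) between 4 and 2 h. At 2 h the gene was still 0.45 (SE 0.11, adjusted p = 0.0190) above 0 h, a call that was lost without any 1 of the 0 h or 2 h arrays (adjusted p = 0.0580 without wild-type 0 h, 0.0795 without wild-type 2 h, 0.125 without labelled-KO 0 h and 0.0999 without labelled-KO 2 h).

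All 5 Bcl2l11 probe sets rose at 1 h, by 1.65 or more, when each probe set was tested as its own feature (3.92% of 22172 probe sets rose). All 5 then fell between 2 and 4 h, with differences of -3.23 to -2.42 (background 7.87%). They parted at 4 h, when 4 lay below their 0 h values and 1 above. The exception, 1426334_a_at, read 3.12, 6.57, 6.91 and 4.61 in labelled-KO cells and 2.89, 6.29, 6.75 and 4.12 in wild-type cells. It was highest at 2 h, and at 4 h it still exceeded 0 h by 1.36 (SE 0.13, adjusted p = 0.000286), although its wild-type 0 h array was at background. Its differences from 0 h, 3.42 at 1 h among them, therefore rest on a baseline measured above background on 1 of 2 arrays and are not exact folds.

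Pmaip1 encodes NOXA, a BH3-only protein that engages mainly MCL1. Its only probe set read 6.06, 8.08, 6.16 and 5.76 in labelled-KO cells and 6.14, 8.26, 6.17 and 4.74 in wild-type cells. The 1 h arrays stood apart in both genotypes, and by 2 h the values lay within 0.10 of those at 0 h. The rise at 1 h was 2.07 (4.18-fold, SE 0.29, adjusted p = 0.00843), and the difference between 2 and 1 h was -2.00 (SE 0.29, adjusted p = 0.00588). The call at 1 h was lost without wild-type 0 h (adjusted p = 0.0553), wild-type 1 h (0.0677) or labelled-KO 0 h (0.0776). At 4 h Pmaip1 differed from 0 h by -0.85 (SE 0.29, adjusted p = 0.0560), which missed the threshold. The 4 h arrays were unlike, with labelled-KO cells 1.02 above wild-type cells on the log2 scale, and without the labelled-KO 4 h array the difference was -1.41 (adjusted p = 0.00220).

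Bbc3 encodes PUMA, the BH3-only protein best known as a p53 target. Its only probe set read 3.04, 3.02, 3.05 and 3.10 in labelled-KO cells and 3.19, 2.83, 3.10 and 3.05 in wild-type cells. It exceeded background on 3 of the 8 arrays and was not tested.

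RefSeq promoter windows of 300 bases, 250 before and 50 after an annotated start, were examined for 9 of the 10 genes (17 windows). A window of each of Bcl2l11, Cflar and the neighbouring Birc genes is set out here, 5′ to 3′ on the gene's strand in GRCm38.p6. Of these genes Birc2 rose later than the others, which were higher at 1 h. Bcl2l11 and Birc2 had 2 windows each, and the one holding more of the searched motifs was printed. The matches shown for these 2 genes were therefore favoured by that choice. Capitals mark matches, on either strand, to a FOXO motif (GTAAACA) in Bcl2l11, an interferon response motif in Cflar and a CRE (TGACGTCA) in Birc2, motifs that were chosen after the values were seen. The windows lie at chr2:128125788-128126087, plus strand, for Bcl2l11, at chr1:58711241-58711540, plus strand, for Cflar, at chr9:7837008-7837307, minus strand, for Birc2, and at chr9:7873121-7873420, minus strand, for Birc3.
Bcl2l11 promoter: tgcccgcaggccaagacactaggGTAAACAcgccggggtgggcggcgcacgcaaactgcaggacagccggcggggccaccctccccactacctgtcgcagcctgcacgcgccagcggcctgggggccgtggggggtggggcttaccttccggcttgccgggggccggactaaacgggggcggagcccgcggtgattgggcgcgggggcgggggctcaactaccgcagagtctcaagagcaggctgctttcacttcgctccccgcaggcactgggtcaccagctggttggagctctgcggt
Cflar promoter: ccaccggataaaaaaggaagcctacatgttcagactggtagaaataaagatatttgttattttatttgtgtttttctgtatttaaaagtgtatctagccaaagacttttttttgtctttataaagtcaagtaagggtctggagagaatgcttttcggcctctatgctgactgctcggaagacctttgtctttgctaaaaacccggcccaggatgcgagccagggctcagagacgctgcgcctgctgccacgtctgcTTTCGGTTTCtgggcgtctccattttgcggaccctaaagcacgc
Birc2 promoter: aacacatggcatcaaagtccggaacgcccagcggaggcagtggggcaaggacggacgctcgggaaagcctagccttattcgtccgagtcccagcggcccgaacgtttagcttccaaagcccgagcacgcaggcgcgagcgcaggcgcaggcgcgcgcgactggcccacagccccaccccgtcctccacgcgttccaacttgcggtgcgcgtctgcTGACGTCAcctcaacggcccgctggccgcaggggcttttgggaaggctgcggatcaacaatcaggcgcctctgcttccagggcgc
Birc3 promoter: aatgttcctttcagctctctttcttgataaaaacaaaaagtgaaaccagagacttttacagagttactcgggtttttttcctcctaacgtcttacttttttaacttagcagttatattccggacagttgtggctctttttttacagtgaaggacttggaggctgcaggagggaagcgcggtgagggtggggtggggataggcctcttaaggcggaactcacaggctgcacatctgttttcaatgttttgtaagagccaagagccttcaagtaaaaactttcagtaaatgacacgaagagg
The FOXO motif occurred in 3.65% of 32851 RefSeq windows, the interferon response motif in 3.44% and the CRE in 1.79%. Among these genes the FOXO motif was also found in a window of Bbc3, at -167. The Cflar match lay on the minus strand, at position 7 from the start, the Birc2 match, a palindrome, at -35 and the Bcl2l11 match at -227. The consensus for NF-kB, the LPS-activated factor, occurred in 4.51% of all windows, and among these genes in a window of Bcl2l1 and a window of Bbc3, so the letters were absent from the windows printed here. A match is a description of the letters and not a bound site.

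Mcl1, the short-lived guardian that NOXA engages, disagreed between its 6 probe sets. The brightest, 1437527_x_at, read 12.33, 12.60, 12.00 and 11.81 in labelled-KO cells and 12.41, 12.59, 12.13 and 11.84 in wild-type cells. Its 1 h arrays were the highest and its 4 h arrays the lowest in both genotypes. At 4 h it differed from 0 h by -0.55 (SE 0.11, adjusted p = 0.00653), and between 2 and 1 h the difference was -0.53 (SE 0.11, adjusted p = 0.0161). That call between 2 and 1 h was lost without any 1 of the 1 h or 2 h arrays (adjusted p = 0.0585 to 0.112), after housekeeping centring (-0.34, adjusted p = 0.0715) and without multi-transcript probe sets (-0.38, adjusted p = 0.0831). By contrast, 1416881_at read 9.48, 10.93, 10.66 and 10.33 in labelled-KO cells and 9.65, 11.01, 10.61 and 10.39 in wild-type cells. Every LPS array of that probe set was above both unstimulated arrays, and the differences from 0 h were 1.41 (SE 0.12, adjusted p = 0.000862) at 1 h and 0.80 (SE 0.12, adjusted p = 0.00204) at 4 h. Over the 6 probe sets, 2 rose at 1 h with 4 not past the threshold, and at 4 h 4 fell, 1 rose and 1 differed by 0.0040 (background at 4 h, 24.1% lower and 14.7% higher). All 3 probe sets with the x suffix, which can match several transcripts, were among the 4 that fell. Centred on housekeeping genes, the difference of the brightest probe set at 4 h was -0.11 (adjusted p = 0.400), and with the mean of all probe sets it was -0.25 (adjusted p = 0.0547), so the direction of Mcl1 at 4 h was not settled by these arrays.

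Bcl2, the founding guardian of the family, fell at 2 and 4 h. Its brightest probe set, 1457687_at, read 7.19, 6.95, 5.65 and 4.29 in labelled-KO cells and 6.34, 6.50, 5.43 and 4.09 in wild-type cells. The 2 h arrays lay below every 0 and 1 h array, and the 4 h arrays lower still. The differences from 0 h were -0.04 (SE 0.18, adjusted p = 0.911) at 1 h, -1.23 (SE 0.18, adjusted p = 0.00268) at 2 h and -2.58 (SE 0.18, adjusted p = 0.000103) at 4 h. Between 2 and 1 h the difference was -1.18 (SE 0.18, adjusted p = 0.00648), lost without labelled-KO 2 h (adjusted p = 0.0530), without the genotype block (0.0564) and with the mean of all probe sets (-0.26, adjusted p = 0.126), and between 4 and 2 h it was -1.35 (SE 0.18, adjusted p = 0.00383). The other 4 probe sets were dim, between 2.56 and 3.66. Of these, 1440770_at differed at 4 h by -0.42 (SE 0.11, adjusted p = 0.0273), a call that did not hold without any 1 of the 0 h or 4 h arrays (adjusted p = 0.0700 to 0.172), and the difference was 0.015 after housekeeping centring.

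Bcl2l1 encodes BCL-XL and, by alternative splicing, the pro-apoptotic BCL-XS. Its brightest probe set, 1420888_at, read 7.08, 6.80, 6.04 and 6.65 in labelled-KO cells and 7.30, 7.17, 6.77 and 6.74 in wild-type cells. The 2 h arrays lay below both 0 h arrays, with a difference of -0.79 (SE 0.17, adjusted p = 0.0112). That call was lost without labelled-KO 0 h (adjusted p = 0.0801) or labelled-KO 2 h (0.0656), after housekeeping centring (0.0665) and without the genotype block (0.0688). At 4 h the difference was -0.50 (SE 0.17, adjusted p = 0.0535). All 3 tested Bcl2l1 probe sets fell at 2 h, with differences of -1.46 to -0.79 (23.4% of all probe sets fell), and the fourth, 1426050_at, was at background on every array.

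Cflar rose at 1, 2 and 4 h. It encodes cFLIP, the caspase-8 relative that keeps death receptors from triggering apoptosis and is a known NF-kB target. Its brightest probe set, 1424996_at, read 8.69, 10.99, 11.29 and 11.34 in labelled-KO cells and 7.85, 10.89, 11.44 and 11.39 in wild-type cells. Every LPS array was at least 2 units above either 0 h array. The differences from 0 h were 2.67 (6.35-fold, SE 0.24, adjusted p = 0.00147) at 1 h, 3.09 (8.53-fold, SE 0.24, adjusted p = 0.000276) at 2 h and 3.10 (8.55-fold, SE 0.24, adjusted p = 0.000159) at 4 h. From 2 to 4 h expression differed by 0.0034 (SE 0.24, adjusted p = 0.994). All 5 Cflar probe sets rose at 1, 2 and 4 h, by 0.91 to 4.54 at 4 h. Of all probe sets, 3.92%, 12.4% and 14.7% rose at these times. Among the 5, 1425687_at read 2.99 in labelled-KO and 2.97 in wild-type cells at 0 h. That is near background, so its differences from 0 h are not exact folds. Another, 1425686_at, read 3.97, 7.90, 8.78 and 8.69 in labelled-KO cells and 4.20, 7.89, 8.66 and 8.56 in wild-type cells. It was lowest at 0 h and highest at 2 h in both genotypes.

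Birc3, which encodes cIAP2, another known NF-kB target, followed a like course. Its brighter probe set read 8.22, 10.33, 9.93 and 10.25 in labelled-KO cells and 8.22, 10.43, 10.15 and 10.43 in wild-type cells. The LPS arrays exceeded the 0 h arrays by at least 1.7 in both genotypes, and among LPS times neither step tested passed the threshold (adjusted p = 0.0806 for 2 against 1 h and 0.118 for 4 against 2 h). The differences were 2.16 (4.45-fold, SE 0.11, adjusted p = 0.000174) at 1 h, 1.82 (3.53-fold, SE 0.11, adjusted p = 0.000118) at 2 h and 2.12 (4.34-fold, SE 0.11, adjusted p = 3.86e-05) at 4 h. The second probe set, 1425223_at, lay between 2.72 and 3.37, near background, and gave no call. The brighter probe set carries the a suffix, for probes shared by transcripts of 1 gene. With it left out as multi-transcript, only the dim probe set remained. The 3 calls of Birc3 were then lost (0.42, 0.15 and 0.24 at 1, 2 and 4 h), which is no check of the brighter probe set. Over the 8 arrays Birc3 and Cflar correlated at r = 0.954, a description of arrays that share their times.

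Birc2, which encodes cIAP1 and is the next gene to Birc3 on chromosome 9 with 0 RefSeq genes between them, rose later. Its only probe set read 6.31, 6.29, 6.87 and 7.77 in labelled-KO cells and 6.10, 6.34, 6.70 and 7.32 in wild-type cells. The 1 h arrays overlapped the 0 h arrays, and the 4 h arrays were the highest. Relative to 0 h, Birc2 differed by 0.11 (SE 0.14, adjusted p = 0.677) at 1 h, 0.58 (SE 0.14, adjusted p = 0.0190) at 2 h and 1.34 (SE 0.14, adjusted p = 0.000532) at 4 h. The call at 2 h was lost without any 1 of the 0 h or 2 h arrays (adjusted p = 0.0856 to 0.104) and without the genotype block (0.0607). The step between 4 and 2 h was 0.76 (SE 0.14, adjusted p = 0.0130), lost without wild-type 2 h (0.0673), labelled-KO 2 h (0.0804) or labelled-KO 4 h (0.0778).

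Xiap, the most direct caspase inhibitor among the IAPs, depended on the probe set. The brightest, 1437533_at, read 8.49, 8.34, 8.37 and 8.54 in labelled-KO cells and 8.55, 8.55, 8.56 and 8.76 in wild-type cells, and it spanned 0.42 over all 8 arrays. It gave no call, with 0.13 (SE 0.11, adjusted p = 0.357) at 4 h. The next brightest, 1456088_at, read 5.41, 6.31, 6.71 and 6.98 in labelled-KO cells and 5.90, 6.34, 6.47 and 6.91 in wild-type cells. In both genotypes the 4 h array was the highest and the 0 h array the lowest, with a difference of 1.30 (SE 0.18, adjusted p = 0.00172). Of the 6 tested Xiap probe sets, 4 rose at 2 h and 5 at 4 h, at 4 h by 0.43 to 1.30, and 0 fell (12.4% and 14.7% of all probe sets rose). Among those called at 4 h, 1450231_a_at lay between 2.87 and 3.43 and exceeded background on 6 of the 8 arrays. Also called, 1421394_a_at lay between 2.93 and 3.63 and exceeded it on 4 of the 8. Both were thus near background, and their calls were not tested with single arrays left out. The remaining Xiap probe set, 1426636_a_at, lay between 2.65 and 3.08, exceeded background on 1 of the 8 arrays and was not tested. Without single arrays, the calls at 4 h of 1453385_at and 1450232_at were lost. The adjusted p values were 0.0667 and 0.115 without wild-type 0 h and 0.0828 and 0.0886 without wild-type 4 h, and that of 1453385_at was 0.0555 without labelled-KO 4 h.

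**Figure D2:**
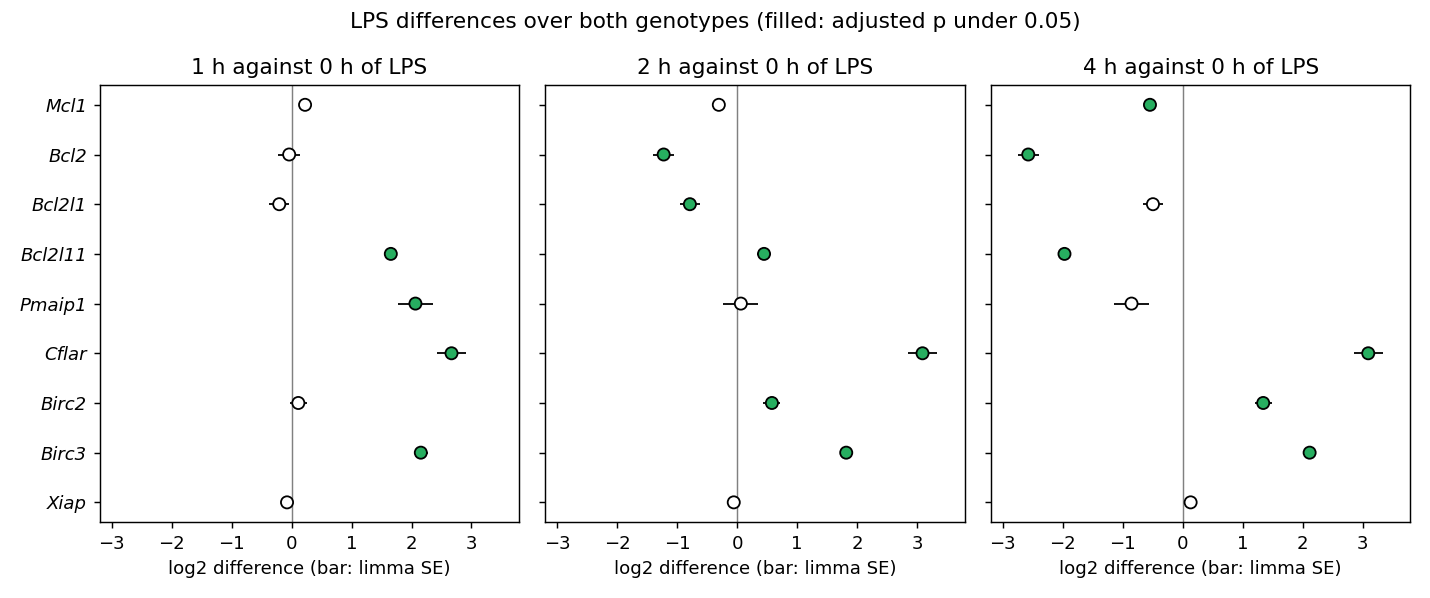
Log2 difference from 0 h (horizontal axis, error bars SE, n = 2 arrays at each time) for each tested gene at 1, 2 and 4 h. Cflar and Birc3 lay above 0 at all times, Bcl2 lay at -1.23 at 2 h and -2.58 at 4 h, and Bcl2l11 lay above 0 at 1 h and below it at 4 h.

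**Figure D3:**
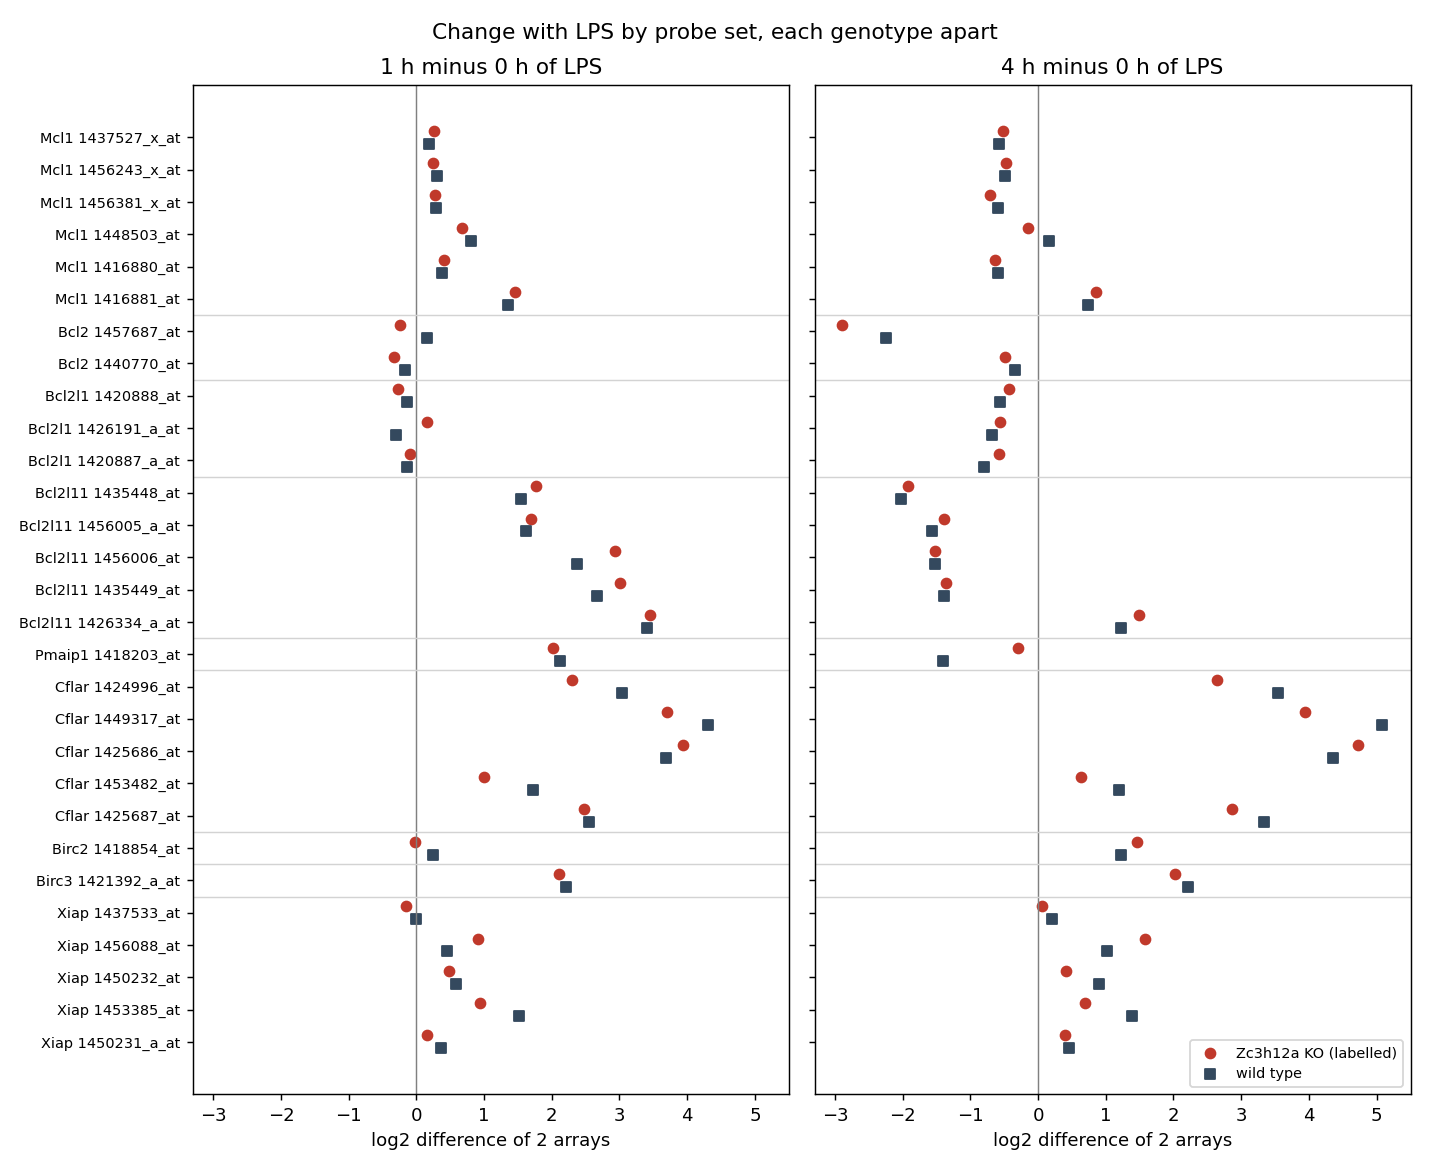
Log2 difference of 1 h (left) and 4 h (right) from 0 h of LPS (horizontal axes) for the 29 probe sets of these genes that were above background on at least 6 arrays, for labelled-KO and wild-type cells (each point a difference of 2 arrays, so no error bar). At 4 h the Mcl1 and Bcl2l11 probe sets lay on both sides of 0, and all 5 Cflar probe sets lay above it in both genotypes.

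Genotype was compared over the 4 times (n = 4 arrays each, 1 at each time, time as a block). The 4 arrays of a genotype are times and not replicates. The p-values here therefore do not measure the spread between mice or cell preparations. None of the 9 tested genes passed the threshold in limma's test at gene level, where 13.5% of all genes did. An unadjusted p below 0.05 was found for 2 of the 9 (Bcl2 and Bcl2l1) and for 3957 of all 12540 genes. The median log2 difference was -0.04, as over all genes. Bcl2 differed by 0.43 (SE 0.13, adjusted p = 0.0751), with labelled-KO minus wild-type values of 0.85, 0.45, 0.22 and 0.20 at 0, 1, 2 and 4 h, positive at all 4 times. Bcl2l1 differed by -0.35 (SE 0.12, adjusted p = 0.101), with -0.23, -0.36, -0.73 and -0.10. Processing changed these calls, as Bcl2 passed under cyclic loess (0.53, adjusted p = 0.0408) and Bcl2l1 after housekeeping centring (-0.43, adjusted p = 0.0490) and with the mean of all probe sets (-0.71, adjusted p = 0.00414).

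The other Bcl2l1 probe sets above background were lower in labelled-KO cells. Probe set 1420887_a_at read 4.74, 4.64, 3.52 and 4.16 in labelled-KO cells and 5.90, 5.76, 4.28 and 5.10 in wild-type cells. At each time the labelled-KO array was the lower, with differences of -1.16, -1.12, -0.76 and -0.94 at 0, 1, 2 and 4 h, and the mean log2 difference was -0.997 (SE 0.10, adjusted p = 0.00263). Probe set 1426191_a_at read 5.75, 5.91, 3.82 and 5.19 in labelled-KO cells and 7.05, 6.75, 6.07 and 6.38 in wild-type cells. Here the labelled-KO arrays lay below every wild-type array, and the mean log2 difference was -1.39 (SE 0.22, adjusted p = 0.0129). Over all probe sets, 6.65% were lower by this test and 10% passed either way, and these were the only 2 of the 33 tested probe sets of the 10 genes to pass it in either direction. The call for 1420887_a_at held without each array in turn (adjusted p at most 0.0201), and that for 1426191_a_at was lost without either 0 h array (0.0593). Both carry the a suffix, which marks probes shared by transcripts of 1 gene. In the same arrays the resident macrophage, stromal, dendritic and mast cell marker sums given above differed between the genotypes. So did single markers of macrophages, B cells, T cells and neutrophils. The part of these markers in the Bcl2l1 difference was not tested.

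By brightest probe set, Xiap read 8.49, 8.34, 8.37 and 8.54 in labelled-KO cells against 8.55, 8.55, 8.56 and 8.76 in wild-type cells. The difference of -0.17 (SE 0.07, adjusted p = 0.180) missed the threshold in limma's test. Over the 6 tested Xiap probe sets the difference ran from -0.17 to 0.10, and none was called. The differences of the remaining genes were -0.06 for Mcl1, -0.04 for Bcl2l11, 0.18 for Pmaip1, 0.18 for Cflar, 0.20 for Birc2 and -0.12 for Birc3. Each of these had an SE of 0.07 to 0.21.

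**Figure D4:**
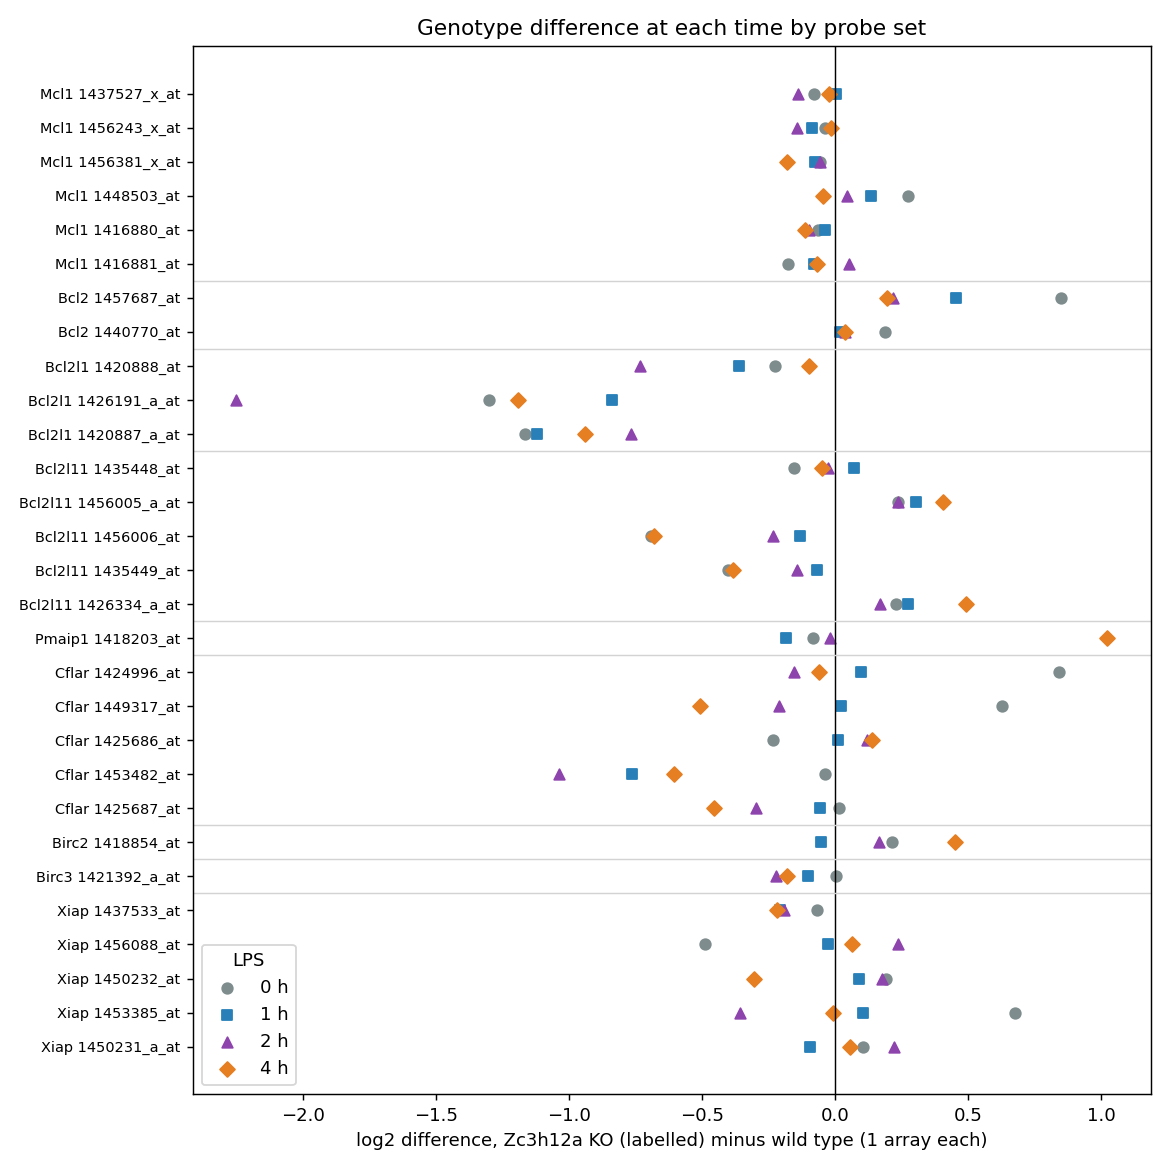
Labelled-KO minus wild-type log2 difference at each time (1 array in each genotype, so no error bar) for the 29 probe sets above background on at least 6 arrays. The 3 Bcl2l1 probe sets lay below 0 at all 4 times, and Bcl2 1457687_at above it.

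Whether LPS changed the genotype difference was tested as the difference at 1, 2 and 4 h together against that at 0 h. In limma's test 0 of the 9 genes passed, as did 0% of all genes, and 2 of the 9 (Cflar and Bcl2) had an unadjusted p below 0.05, as did 434 of 12540 genes. On its brightest probe set Cflar differed between the genotypes by 0.84, 0.10, -0.15 and -0.06 at 0, 1, 2 and 4 h. There the labelled-KO cells were higher before LPS and close to wild-type cells after it. The term for this change was -0.88 (SE 0.20, adjusted p = 1.00). With trend and robust settings Cflar passed (adjusted p = 0.0374). Probe set 1449317_at differed by 0.63, 0.02, -0.21 and -0.51, and 1453482_at by -0.04, -0.76, -1.04 and -0.60. At 0 h 1425686_at differed by -0.23, so a higher level before LPS was not shared by all Cflar probe sets. The 0 h difference of 1425687_at was 0.01, but its values there, 2.99 and 2.97, were near background and cannot show a difference or its absence. Its term below uses that baseline. For 1453482_at and 1425687_at the labelled-KO array was the lower at 1, 2 and 4 h. Tested as single probe sets, the term was negative for 4 of the 5 Cflar probe sets (-0.88 to -0.28) and 0.32 for 1425686_at, and each had an adjusted p of 1.00 in limma's test. For Bcl2 the term was -0.56 (SE 0.21, adjusted p = 1.00).

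Other genes of these pathways were counted at gene level in the same fits. The median log2 difference at 4 h was 0.60 for the death receptor and necroptosis list, 0.62 for the IAP antagonists, 0.34 for the pore formers, 0.03 for the apoptosome and caspases, -0.01 for the other BH3-only genes, -0.20 for the other IAP genes and -0.48 for p53 and its other targets, beside -0.12 over all genes. By genotype, 1 of 9 death receptor and necroptosis genes, 1 of 6 apoptosome and caspase genes and 2 of 6 other IAP genes were higher in labelled-KO cells with 0 lower, 0 of 3 IAP antagonists were higher and 1 lower, and 1 of 5 other BH3-only genes was higher and 1 lower. None of the 10 p53-list genes, 9 housekeeping genes or 2 pore formers passed the genotype test in limma. In the death receptor and necroptosis list, 6 of 9 tested genes rose and 1 fell at 4 h. Tnfsf10, which encodes the death ligand TRAIL, rose by 5.30 (adjusted p = 7.21e-06) and Mlkl, the necroptosis effector, by 4.26 (adjusted p = 4.69e-06). Mlkl was also higher in labelled-KO cells (0.44, adjusted p = 0.0184), and Tnfrsf1b, a TNF receptor, differed by -0.25 (adjusted p = 0.116). Of 3 IAP antagonists, 2 rose at 4 h, Xaf1 by 4.88 (adjusted p = 1.96e-05) and Diablo, the mitochondrial SMAC, by 0.62 (adjusted p = 0.0230). Htra2, a mitochondrial protease that binds IAPs, was lower in labelled-KO cells (-0.48, adjusted p = 0.0163), and Xaf1 differed by 0.47 (adjusted p = 0.0866). Of 6 genes for the apoptosome and caspases, 2 rose and 2 fell at 4 h. Among them Casp8, the initiator that cFLIP restrains, rose by 1.18 (adjusted p = 0.000283), whereas Casp9, the apoptosome initiator, fell (-2.38, adjusted p = 9.03e-05). Cycs, which encodes cytochrome c, was higher in labelled-KO cells (0.59, adjusted p = 0.00553), and Casp6 differed by -0.24 (adjusted p = 0.131).

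Of 5 other BH3-only genes, 1 rose (Bid, 0.89, adjusted p = 0.00343) and 2 fell at 4 h, including Bnip3, a hypoxia-regulated mitophagy gene (-1.62, adjusted p = 0.000536). Labelled-KO cells had more Bnip3 (0.71, adjusted p = 0.0164) and less Bad (-0.54, adjusted p = 0.00982). Of the 2 pore-forming genes tested, Bak1 rose by 0.72 (adjusted p = 0.00872) and Bok differed by -0.04 (adjusted p = 0.840) at 4 h. Neither differed by genotype at the threshold (-0.01 for Bak1, adjusted p = 0.970, and -0.19 for Bok, adjusted p = 0.235). The remaining guardian tested, Bcl2l2, gave no call (0.25 at 4 h, adjusted p = 0.281, and 0.02 by genotype, adjusted p = 0.918). Among 6 other IAP-family genes, 1 rose and 2 fell at 4 h, Naip5 (-0.85, adjusted p = 0.00313) and Naip6 (-0.85, adjusted p = 0.00367). The NAIP proteins sense bacterial flagellin and secretion-system proteins for the inflammasome. Naip5 was higher in labelled-KO cells by 1.55 (adjusted p = 0.000510) and Naip2 by 0.65 (adjusted p = 0.0111), but these are close paralogs whose probes may share signal. In the list of p53 and its other targets, 2 of 10 rose and 4 fell at 4 h, among them Sesn1 (-4.39, adjusted p = 2.13e-05) and Trp53inp1 (-2.65, adjusted p = 1.87e-05). By genotype they differed by -0.32 (adjusted p = 0.168) and -0.11 (adjusted p = 0.370). Of 9 housekeeping genes, 0 rose and 5 fell at 4 h, with a median of -0.52, among them Polr2a (-1.55, adjusted p = 0.000177) and Sdha (-1.04, adjusted p = 0.00109). By genotype, Tbp differed by 0.37 (adjusted p = 0.0934) and Gusb by -0.16 (adjusted p = 0.199). Probe sets of the Bcl2a1 paralogs carry several symbols and were not named.

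The tested genes most like the 4 widest-ranging members were ranked by Pearson's r over the 8 arrays, a description of arrays that share their times and pipeline. Those most like Bcl2l11 were Krr1 (r = 0.984), Pole (0.976) and Cacna1a (0.975), although Pole read only 3.08 to 3.37 over the 8 arrays, near background. Cflar was followed most closely by Ehd1 (0.997), Acod1 (0.996) and Irf1 (0.996). For Pmaip1 they were Ncoa2 (0.952), Irs2 (0.951) and Egr2 (0.944), and for Bcl2, Eef2k (0.992), Insr (0.990) and Shtn1 (0.990).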

How the data were processed

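Per the labels, RNA was extracted with Trizol, labelled with biotin by the NuGEN Ovation system and put on 1 array per condition. The deposited values are log2 intensities made by the authors with RMA, per the submitters' processing notes (version not given in the sources used here). RMA makes array distributions alike, so a shift in total mRNA is not seen. All 8 value columns were used.

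Of 45101 probe sets, 34945 had 1 symbol in GEO's platform annotation, 932 several and 9211 none. Each of 18193 genes was represented by its brightest probe set and kept if its second-highest array reached 3.16, the median of all values, which left 12540 genes. An additive model of genotype and time (3 residual degrees of freedom) and a model with the changed genotype difference (2) were fitted with limma 3.58.1 in R 4.3.3 and eBayes, with Benjamini-Hochberg adjustment over all genes and a threshold of 0.05. SE is limma's moderated standard error. The fits were tested on simulated data. Single-time genotype differences rest on 2 arrays and got no test. The p-values measure only the spread between these arrays, and their number limits the precision.

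The 10 genes and the 18 gene and marker lists were chosen with earlier results of these data known. The rule for named members took all probe sets of the 10 genes, and those not given singly are covered by counts and ranges. From each pathway list the 2 genes of smallest p by genotype and at 4 h were named, and for likeness the 3 genes of highest r for each of the 4 members with the widest range. Promoters came from RefSeq (GRCm38.p6). Background from control probe sets and tests of single probe sets were chosen after seeing the data. The alternatives tried were cyclic loess, housekeeping centring, no filter, a 75th percentile filter, the mean of all probe sets, dropping multi-transcript probe sets, trended and robust eBayes, no block, a 2-fold minimum, each array left out and, added after seeing the data, each probe set tested as its own feature. A motif search of protein sequences was not run.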

Additional observations from a re-analysis of the deposited data

How the results depend on the processing

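Of the 23 gene-level LPS calls among the 9 tested genes, 12 kept their direction and side of the threshold under all 18 settings, 11 were lost under at least 1, and 1 of these changed sign. With multi-transcript probe sets left out, Mcl1 at 4 h was 0.0040. With the mean of all probe sets, Xiap at 2 h was 0.45, past the threshold, against -0.06. The calls of Birc3 were lost only when its main probe set was left out and the near-background one remained (0.42, 0.15 and 0.24 at 1, 2 and 4 h). Housekeeping centring turned Bcl2 probe set 1440770_at at 4 h to 0.015, and the all-gene median at 4 h was 0.32 after it, against -0.12 as deposited. Members called by genotype numbered 1 under cyclic loess (Bcl2), 1 under housekeeping centring and 1 with the mean of all probe sets (Bcl2l1 in both), against 0. Over all genes the genotype calls were 1545, 2321 and 1555 in these settings, against 1690. A 75th percentile filter gave 7 against 4 for 2 against 1 h, beside 3004 against 2794 over all genes, with fewer genes tested. Trend and robust settings gave 6 against 3 for 4 against 2 h, beside 3152 against 2631 over all genes. They gave 1 against 0 for the changed genotype difference, beside 15 against 0 over all genes. A 2-fold minimum left 3 of 6 at 2 h, and all genes were not counted with it. The cause of these shifts was not tested.

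Leaving out each array gave 0 to 0 calls by genotype, 3 to 4 at 1 h, 3 to 6 at 2 h (3 without labelled-KO 0 h or labelled-KO 2 h), 6 to 7 at 4 h, 2 to 4 for 2 against 1 h (2 without labelled-KO 2 h), 2 to 3 for 4 against 2 h and 0 to 0 for the changed difference. Over all genes, leaving out an array gave 597 to 1237 calls by genotype, against 1690 with all arrays. A time comparison that loses an array of its own rests on 1 array at that time. The member counts from these fits therefore do not measure stability. Without either 0 h array the changed difference could not be fitted. No paired analysis was possible because the labels carry no replicate numbers, so arrays were matched by time alone, through the time block of the genotype fit. With 1 array per condition, and with dim probe sets near background for Bbc3, 4 of the Bcl2 probe sets and several of Xiap, small differences were not detectable.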
